A study of Homo sapiens with 4 samples.

Results

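To describe the chromatin around the genes that encode AP-1 subunits, ATAC-seq peaks were collected at JUN, FOS, FOSL1 and FOSL2. A peak was counted when it overlapped the gene span or the 100 kb on either side of it, and peaks of the 4 libraries that shared at least 1 bp were joined into a region. This gave 18 of the 20450 regions of the whole series. The assay was run in RKO cells, an established human colon cancer line, where the Tn5 transposase cuts and tags open DNA so that reads pile up over accessible sites. The 2 conditions compared were RKO cells stably infected with a control lentivirus, and RKO cells stably infected with a lentivirus for shCHD7-2, a single short hairpin RNA against the chromatin remodeller CHD7. Each condition had 2 libraries. Whether they came from separate cultures is not given, so the spread between them may be technical. The peak lists hold no transcript levels, so neither the knockdown nor the cell identity was checked here. The comparison asks whether accessible sites near AP-1 genes were kept when CHD7 was depleted.

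AP-1 is a dimer of basic leucine zipper proteins that binds regulatory DNA in response to growth factors, stress and oncogenic RAS or RAF signalling. JUN can pair with itself or with FOS proteins, whereas FOS, FOSL1 (also known as FRA1) and FOSL2 (FRA2) need a JUN partner to bind DNA. JUN and FOS are immediate early genes, switched on within minutes of a stimulus, and FOSL1 and FOSL2 usually follow later. In colon epithelium and its tumours, AP-1 has been tied to proliferation and invasion.

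The spans examined were chr1:59246465-59249785 for JUN, chr14:75745477-75748937 for FOS, chr11:65659520-65668044 for FOSL1 and chr2:28615315-28640179 for FOSL2 (hg19). JUN and FOSL1 lie on the minus strand, FOS and FOSL2 on the plus strand. The promoter of JUN was the only one of the 4 at which a peak was listed within 1 kb of the gene start. Its 250 bases before the start are therefore shown, beside those of FOS, where no peak was listed in any library. Both are RefSeq sequences on GRCh38.p14, at chr1:58784048-58784297 (minus strand) for JUN and chr14:75278578-75278827 (plus strand) for FOS, each read 5′ to 3′ toward the gene. Capitals mark letters searched for on both strands, namely TGACTCA (the AP-1 site), TGACGTCA (the CRE), TGACATCA (the AP-1-like site of JUN), TATAA (the TATA box), CCAAT (the CCAAT box), GGGCGG (the GC box) and the CArG box.

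JUN: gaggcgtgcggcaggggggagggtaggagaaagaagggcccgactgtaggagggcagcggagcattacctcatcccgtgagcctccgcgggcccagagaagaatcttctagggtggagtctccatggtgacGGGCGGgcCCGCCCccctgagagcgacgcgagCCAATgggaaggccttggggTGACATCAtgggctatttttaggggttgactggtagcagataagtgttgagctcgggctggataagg
FOS: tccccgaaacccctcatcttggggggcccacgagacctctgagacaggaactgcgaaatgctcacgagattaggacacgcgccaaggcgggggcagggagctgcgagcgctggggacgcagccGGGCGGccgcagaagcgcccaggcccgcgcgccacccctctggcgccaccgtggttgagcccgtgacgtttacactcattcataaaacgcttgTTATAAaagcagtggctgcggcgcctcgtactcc

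In JUN the capitals were GGGCGG on each strand, CCAAT, and TGACATCA beginning 67 bases before the start. TGACATCA was present in 2.37% of 35116 RefSeq promoter windows of the same length, CCAAT in 32.0% and GGGCGG in 42.6%. In FOS the capitals were GGGCGG and TATAA, which was read on both strands of the same letters and was found in 18.9% of windows. Neither window held TGACTCA (4.2% of windows), TGACGTCA (1.65%) or a CArG box (1.16%). The window of FOSL2 held GGGCGG alone, and that of FOSL1 was not analysed here. GC content was 62% for JUN, 64.8% for FOS and 69.6% for FOSL2, against a median of 58% over all windows. Because gene starts differ between annotations (JUN is 3257 bases long in this gene table and 3321 in the span used here), these letters cannot be laid base by base on the hg19 peaks.

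Peaks near AP-1 genes were fewer in both shCHD7-2 libraries than in both control libraries. The 4 windows held 11 and 14 peaks in the first and second control library, and 3 and 6 peaks in the first and second shCHD7-2 library. Mean peak numbers were 12.5 ± 2.12 for control and 4.5 ± 2.12 for shCHD7-2 (SD over 2 libraries per group), which gives a log2 ratio of -1.47. The groups did not overlap, and p was 0.333 (two-sided, exact permutation), the smallest value that 2 libraries against 2 can reach. Over all peaks on chromosomes 1 to 22 and X the groups did not overlap either. The control lists held 13257 and 12092 peaks and the shCHD7-2 lists 7199 and 8715, a log2 ratio of -0.67. The difference between these log2 ratios was not tested.

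**Figure D1:**
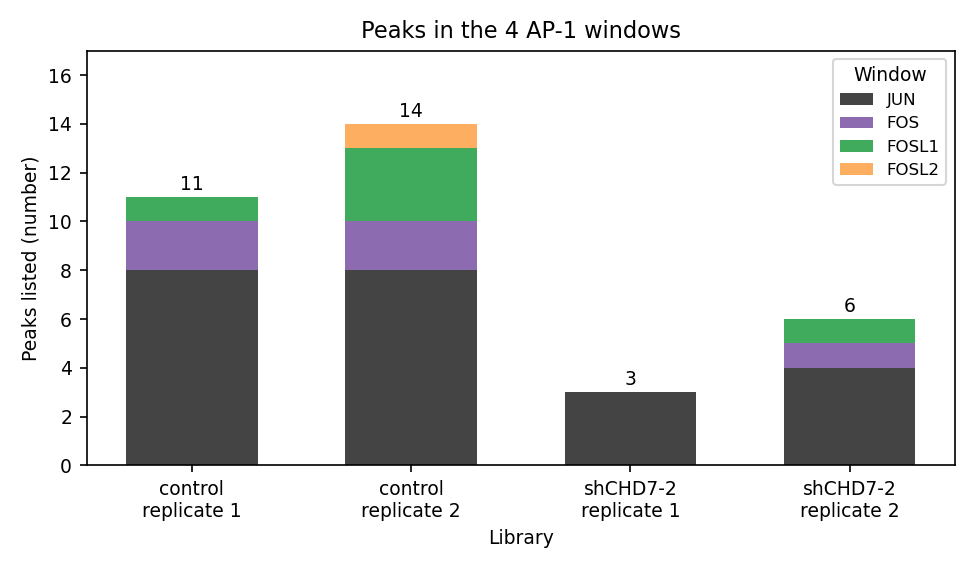
Number of peaks listed in each library (bars) in the windows around JUN, FOS, FOSL1 and FOSL2 (colours, stacked), with the total above each bar. The control libraries hold 11 and 14 peaks and the shCHD7-2 libraries 3 and 6, and the JUN window gives most peaks in every library.

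Together these peaks covered 7.15 kb and 6.84 kb in the control libraries, but only 1.33 kb and 2.05 kb in the shCHD7-2 libraries. Mean covered length was 6.99 ± 0.220 kb for control and 1.69 ± 0.505 kb for shCHD7-2 (SD over 2 libraries per group), a log2 ratio of -2.05 with the same exact permutation p of 0.333. Over all peaks the log2 ratio of covered length was -0.89. With windows of only 10 kb on each side, the peak counts of the groups overlapped, at 1 and 5 in control and 1 and 2 in shCHD7-2 (log2 ratio -1, exact permutation p = 1). Without shCHD7-2 replicate 2 the log2 ratio for peaks in the 100 kb windows was -2.06, the value that moved most when a library was left out.

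A peak is listed only above the caller's threshold, so a region without one is not shown to be closed. The lowest summit listed held 6 reads in each control library and 8 in each shCHD7-2 library. These read numbers were solved for each peak from its fold enrichment and p value. The background at a typical position, recovered in the same way, was 0.916 and 0.843 reads in control replicates 1 and 2, and 1.40 and 1.62 reads in shCHD7-2 replicates 1 and 2. The shCHD7-2 libraries thus had fewer peaks at a higher background. The part of library depth and quality in the results below was not tested, and it cannot be told apart from the knockdown because both follow the same division of the 4 libraries.

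Of the 18 regions, 8 were listed in both control libraries and 2 in both shCHD7-2 libraries. Those of the 8 missing from both shCHD7-2 libraries are called lost, and there were 3 of them, 2 near JUN and 1 near FOS, a share of 37.5% against 34.4% over all regions listed in both control libraries. Another 4 were listed in 1 shCHD7-2 library (25.9% over all such regions), and 1 was listed in all 4 libraries (39.7% over all). None of the 2 regions listed in both shCHD7-2 libraries was gained, meaning absent from both control libraries, and over all regions 11.0% of such regions were. The share lost near AP-1 genes was thus close to the share in the whole series. These counts are small, and each rests on single calls. The number lost was 8 without control replicate 1, 6 without control replicate 2, 6 without shCHD7-2 replicate 2 and 4 without shCHD7-2 replicate 1. With a library left out, the call of its group rests on the 1 library that remains. The definition of lost is then looser, so the number can rise for that reason alone. The share over all regions is not given with a library left out, so these numbers cannot be set against the whole series.

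**Figure D2:**
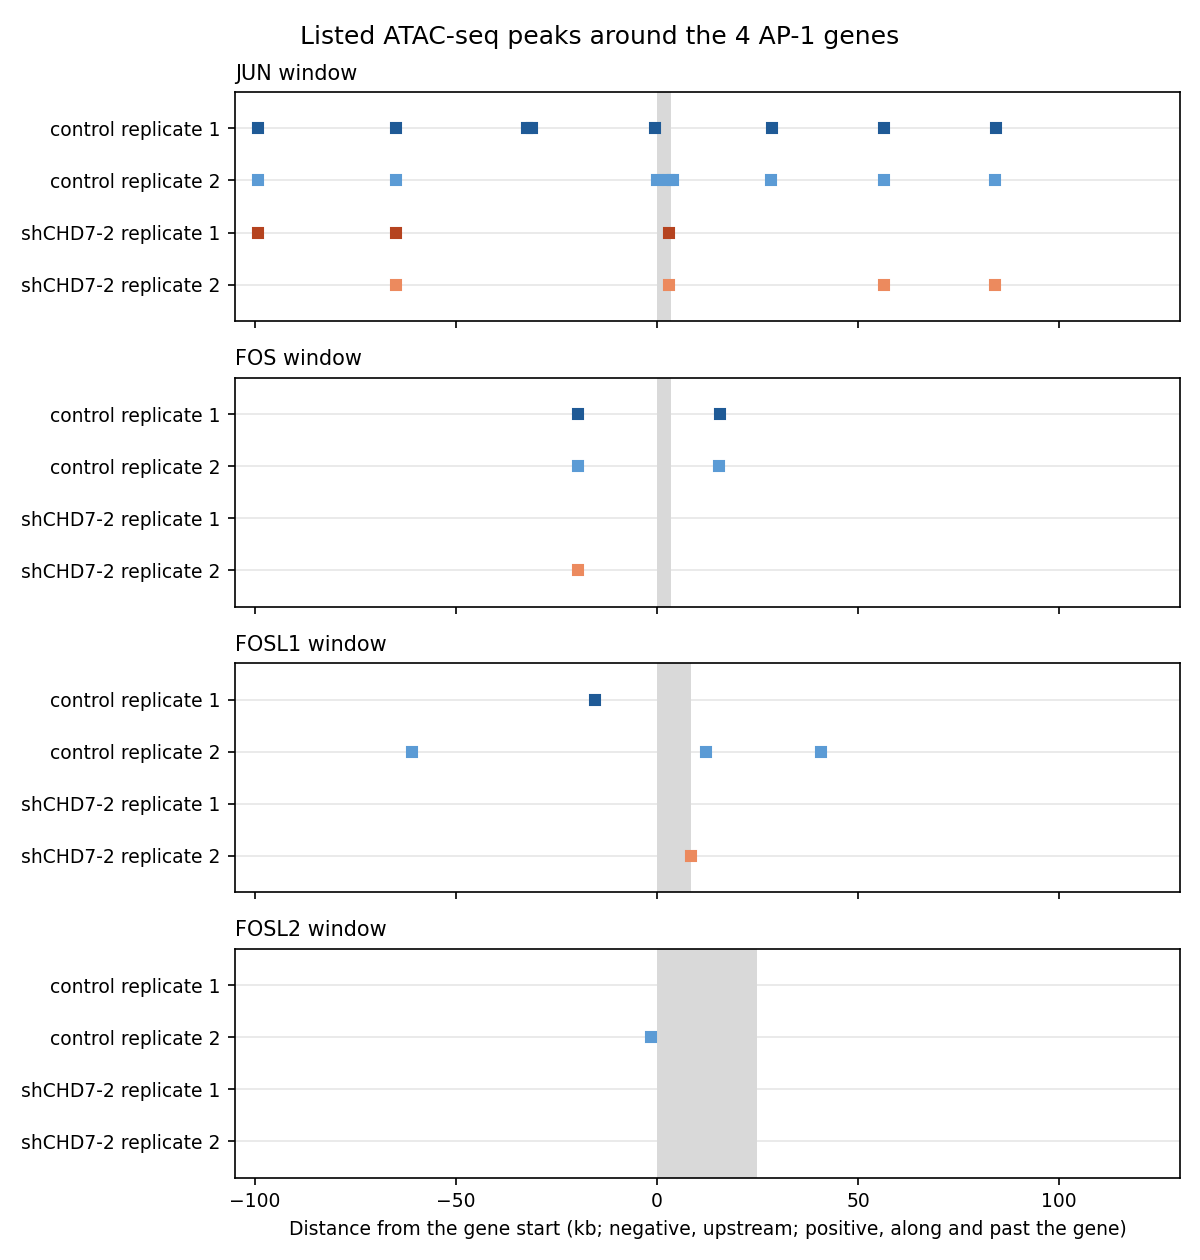
Peaks listed in each library (rows, squares at the middle of each peak, drawn larger than the peaks) against the distance from the start of JUN, FOS, FOSL1 and FOSL2 in kb, counted in the direction of transcription, with the gene span in grey. The control rows of the JUN window hold 8 peaks each, the shCHD7-2 rows 3 and 4, and the FOSL2 window holds a single peak.

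Replicates also differed among themselves. The control libraries shared 8 regions, while 3 were listed in control replicate 1 alone of that pair and 6 in control replicate 2 alone. Over the whole series the corresponding numbers were 8557, 4541 and 3320, so there the replicate with more unshared regions was the other one. The shCHD7-2 libraries shared 2 regions, with 1 in replicate 1 alone of the pair and 4 in replicate 2 alone, against 4367, 2719 and 4197 over the whole series. Single-library regions made up 9 of the 18, against 47.8% of all regions, and 8 of these 9 came from a control library, as did 63.6% of all single-library regions. Ranks are given below as the percentile of a peak by its -log10 p within its own list, where 100 is the strongest peak. The shCHD7-2 lists are shorter, so equal percentiles do not mean equal places.

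JUN, the subunit that can form AP-1 on its own, had the densest window. It held 10 of the 18 regions, with 8 peaks in each control library, 3 in shCHD7-2 replicate 1 and 4 in shCHD7-2 replicate 2. This was 39.3 peaks per Mb in each control library, where chromosome 1 as a whole had 5.18 and 4.72. In shCHD7-2 replicates 1 and 2 it was 14.8 and 19.7 peaks per Mb, where chromosome 1 had 2.51 and 3.09. The window therefore held more peaks than the average of its chromosome in each of the 4 libraries.

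At the JUN promoter, a region at chr1:59249601-59250786 that spans the gene start was listed in both control libraries and in neither shCHD7-2 library. In control replicate 1 the peak was 1087 bp wide with its summit 112 bp upstream of the start, 34 reads there and a percentile of 82.5. In control replicate 2 it was 475 bp wide with its summit 208 bp upstream, 22 reads and a percentile of 42.0. Both summits thus lay close upstream of JUN, but their ranks differed widely between replicates. By fold enrichment in place of -log10 p, the percentiles were lower, at 40.9 and 3.92. When the regions of both control libraries were divided into 10 deciles by mean control rank, 40.7% of those in the same decile were lost, so a loss at this rank was frequent.

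Near the 3′ end of JUN the calls were different. A region at chr1:59246624-59247195, inside the gene span, was listed in both shCHD7-2 libraries and in control replicate 2, but not in control replicate 1. Its summit held 25 reads in shCHD7-2 replicate 1, 19 in shCHD7-2 replicate 2 and 22 in control replicate 2, at 2892, 2983 and 2992 bp from the start. The percentiles were 89.4, 49.3 and 39.1 in that order. The summits lay at most 100 bp apart, and the read numbers of the groups overlapped, without regard to background. By fold enrichment the percentiles were 78.1 and 25.8 in shCHD7-2 replicates 1 and 2, against 2.29 in control replicate 2. By -log10 p and by fold enrichment, both shCHD7-2 percentiles were thus higher than that of control replicate 2. Control replicate 1 lists no peak there and gives no value. This combination of calls was found in 4.81% of all regions listed in both shCHD7-2 libraries. A further peak, 409 bp beyond the 3′ end, was listed in control replicate 2 only (20 reads, percentile 30.0).

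**Figure D3:**
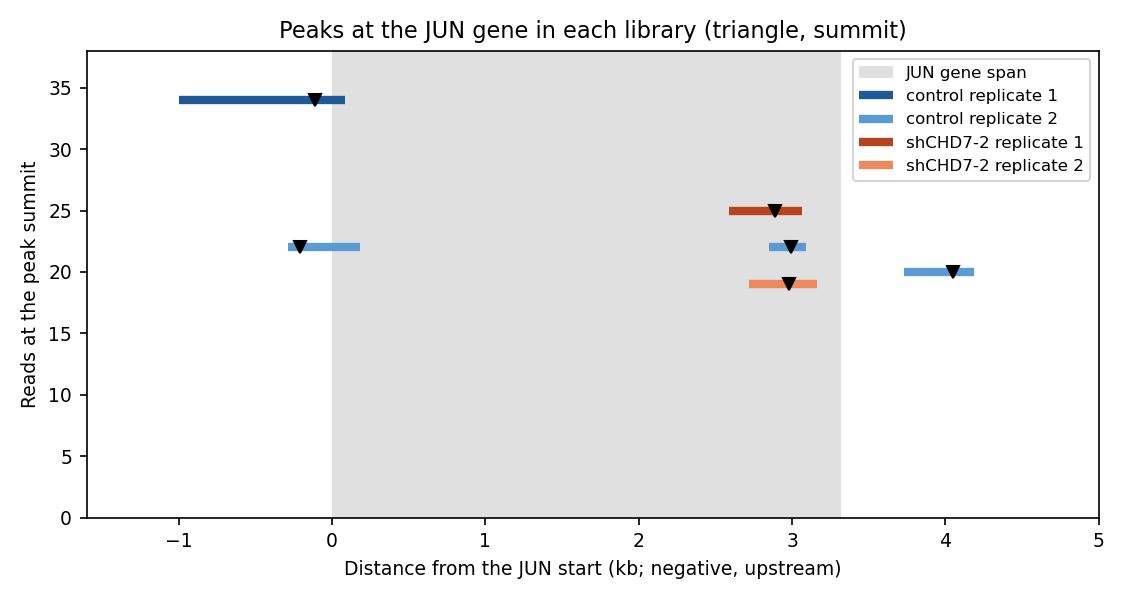
Peaks at the JUN gene, with the distance from the JUN start in kb on the horizontal axis and the reads at the summit on the vertical axis (bars, extent of each peak; triangles, summits; grey, gene span). Only control libraries have a peak at the start, with 34 and 22 reads, whereas both shCHD7-2 libraries and control replicate 2 have one near the 3′ end, with 25, 19 and 22 reads.

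The caller compares each summit with a local background, the reads it expects from the DNA around the peak. At the peaks in and beside JUN this was 5.58 reads in control replicate 1 and between 4.66 and 5.06 reads in control replicate 2. In shCHD7-2 replicates 1 and 2 it was 3.20 and 3.76 reads. As multiples of the background of each library, the highest values were 6.09 and 6.0 in control replicates 1 and 2, and 2.28 and 2.32 in shCHD7-2 replicates 1 and 2. The control values lay above 99.2% and 98.9% of all peaks in their lists, and the shCHD7-2 values above 91.4% and 93.4%. JUN therefore sat on a raised local background in each of the 4 libraries, to a higher multiple in control. The value of control replicate 1 is from the promoter peak, and the highest values of the other libraries are from the 3′ region. A peak at FOSL1 had the same multiple, 2.32, in shCHD7-2 replicate 2. A lower multiple in both shCHD7-2 libraries was not particular to JUN, since it was found in 80.8% of regions listed in all 4 libraries.

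The raised background also set how many reads a peak needed there. With the local background recovered at the 3′ peak, a summit would have had to reach 12 reads in shCHD7-2 replicate 1 and 13 in shCHD7-2 replicate 2 to be listed. Whether the shCHD7-2 background was the same at the promoter is not known, since no peak is listed there. In control replicates 1 and 2, with 34 and 22 reads, the promoter peaks needed 16 and 15 reads.

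**Figure D4:**
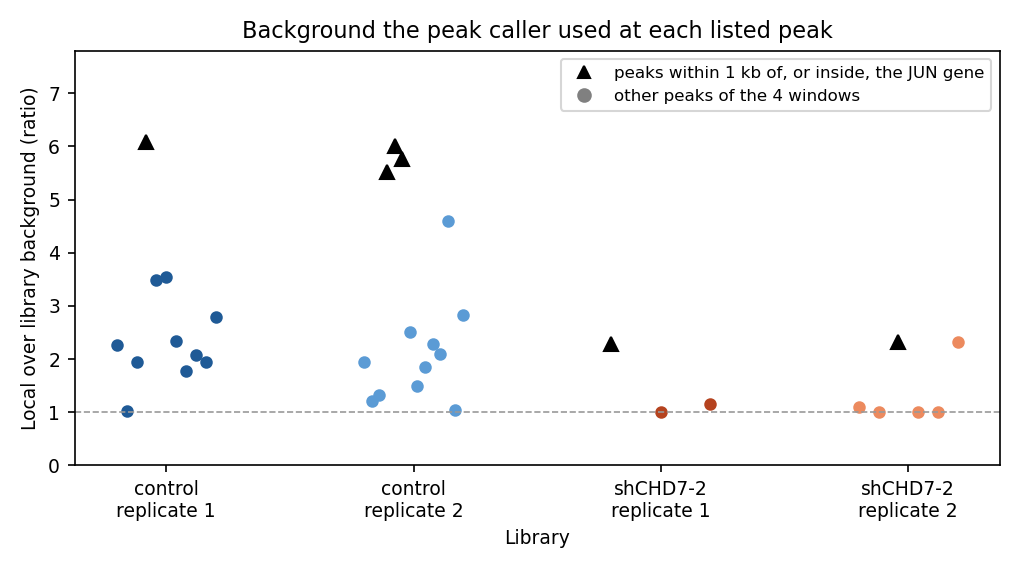
Local background of each listed peak in the 4 AP-1 windows, as a multiple of the typical background of its library (vertical axis, linear ratio), by library, with peaks inside or within 1 kb of JUN as triangles and the others as circles. The JUN triangles lie between 5.53 and 6.09 in the control libraries and at 2.28 and 2.32 in the shCHD7-2 libraries, and the dashed line marks the background of the library.

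The other lost region of this window lay downstream, 24.7 kb past the 3′ end of JUN at chr1:59220882-59221780. It held 26 reads in control replicate 1 and 16 in control replicate 2, at percentiles of 92.3 and 77.5, with summits 28 bp apart. No peak was listed in either shCHD7-2 library. In its decile by control rank, 7.24% of regions were lost. Of the 3 lost regions it had the highest mean percentile by -log10 p, although the JUN promoter held more reads at its summit in both control libraries.

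Upstream of JUN, the region at chr1:59314347-59315299 was the only one listed in all 4 libraries. It had the highest mean control percentile of the JUN regions listed in both control libraries. It lies 64.6 kb from the gene start. Its summit held 29 and 27 reads in control replicates 1 and 2, and 13 and 12 reads in shCHD7-2 replicates 1 and 2. The percentiles were 93.7 and 92.4 in control and 60.5 and 41.2 in shCHD7-2, a difference of means of -42.2 points. Reads, percentiles and widths were each lower in both shCHD7-2 libraries than in both control libraries, with widths of 953 and 694 bp against 342 and 417 bp. The same pattern was seen in 52.4% of all regions listed in all 4 libraries for reads, in 41.4% for percentiles and in 49.2% for widths. The median summit over those regions was 23 and 21 reads in control, and 16 and 18 reads in shCHD7-2.

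The remaining JUN regions were listed in control with or without a single shCHD7-2 library. Downstream, the regions at chr1:59164961-59165958 and chr1:59193038-59193720 lay 80.5 kb and 52.7 kb past the gene and were listed in both control libraries and in shCHD7-2 replicate 2. The first held 16, 16 and 17 reads in control replicates 1 and 2 and shCHD7-2 replicate 2, and the second held 11, 16 and 13 reads. At these sites the reads of the shCHD7-2 library lay within or just above the range of the control libraries, without regard to background. By fold enrichment the first was 6.47 in shCHD7-2 replicate 2 against 5.52 and 6.44 in control replicates 1 and 2. The second was 5.34 against 6.19 and 8.42, below both control libraries. At the upstream edge of the window, 99.0 kb from the start, chr1:59348792-59349461 was listed in both control libraries and in shCHD7-2 replicate 1, with 18, 13 and 15 reads. Between them, 2 regions 31.0 kb and 32.1 kb upstream were listed in control replicate 1 only, with 25 and 14 reads (percentiles 78.3 and 10.4). In the gene table at hand (GRCh38.p14), MYSM1 is the 1 protein-coding neighbour of JUN within 100 kb, and JUN-DT, a divergent noncoding transcript, is among 7 other neighbours. The peaks were not assigned to these genes.

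**Figure D5:**
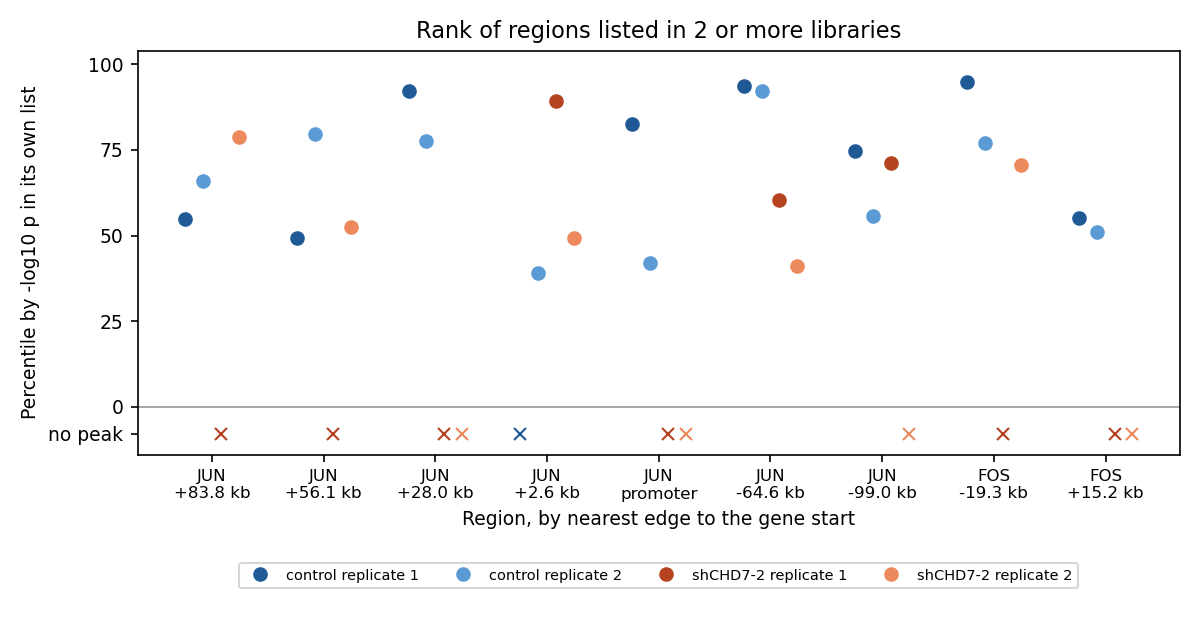
Percentile by -log10 p within its own list (vertical axis; 100, strongest) of the 9 regions listed in 2 or more libraries, by library (colours), with crosses where a library lists no peak. The region 64.6 kb upstream of JUN is the only one with 4 points, and its shCHD7-2 points, 60.5 and 41.2, lie below the control points, 93.7 and 92.4.

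FOS, the immediate early partner of JUN, had no peak at its promoter or inside the gene in any library. Its window held 2 regions, both listed in both control libraries. The region with the higher mean rank, chr14:75725453-75726180, lay 19.3 kb upstream. It held 29 and 18 reads in control replicates 1 and 2 (percentiles 94.9 and 77.1) and 15 reads in shCHD7-2 replicate 2 (percentile 70.6), with the 3 summits at most 20 bp apart. No peak was listed there in shCHD7-2 replicate 1. The percentile of the shCHD7-2 library lay below both control percentiles, but its distance from control replicate 2 depended on the measure. By fold enrichment the percentiles in shCHD7-2 replicate 2 and control replicate 2 were 80.1 and 80.3, in the same order but nearly equal. Counted from the top of each list, the peak was in place 2570 in shCHD7-2 replicate 2 and 2775 in control replicate 2. This order is the reverse, but the shCHD7-2 list is shorter.

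The second FOS region, chr14:75760726-75761238, lay 11.8 kb past the 3′ end and was lost. It held 15 reads in each control library, at percentiles of 55.0 and 51.2, with summits 4 bp apart. In its decile by control rank 47.4% of regions were lost, so this loss was of a frequent kind. In total the FOS window held 2 peaks in each control library, 1 in shCHD7-2 replicate 2 and none in the remaining library. No protein-coding neighbour of FOS within 100 kb is in the gene table.

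FOSL1 encodes FRA1, often the main FOS-family protein in invasive tumour cells. No region of its window was listed in more than 1 library, and no peak was listed at its promoter. Control replicate 1 had 1 peak, control replicate 2 had 3, shCHD7-2 replicate 1 had none and shCHD7-2 replicate 2 had 1. The peak of shCHD7-2 replicate 2, chr11:65659365-65659661, overlapped the 3′ end of FOSL1, with 20 reads and a percentile of 58.2, the highest number of reads in this window. In control replicate 2, a peak 3.39 kb past the 3′ end (chr11:65655636-65656127) held 19 reads at a percentile of 38. The others held between 11 and 13 reads, at percentiles from 15.3 to 61.2. None of these calls was repeated in the other library of its group, so the FOSL1 window gives no difference between conditions. Its gene table neighbourhood holds 14 protein-coding genes, among them CFL1, SART1 and DRAP1, and in control the window had 4.80 and 14.4 peaks per Mb against 5.20 and 4.74 on chromosome 11.

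FOSL2, which encodes FRA2, had the fewest peaks although its window is the longest. A single peak was listed in control replicate 2 and none in the other 3 libraries. It lay at chr2:28613691-28613890, 1.43 kb upstream of the gene start, with 14 reads and a percentile of 28.2. Its width of 200 bp is the narrowest that any of the lists holds. With 1 peak in 1 list, no difference between conditions was detectable at FOSL2.

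Genes for other AP-1 subunits, such as JUNB, JUND, FOSB and ATF3, were not analysed here, nor were genes with calls like those of JUN, because the gene table at hand describes another genome build than the files.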

How the data were processed

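ATAC-seq peak lists in the narrowPeak layout were used, called by the authors separately in each of the 4 libraries. The submitters' processing notes name Bowtie2 2.2.5, SAMtools 1.9, MACS2 2.1.2, deepTools 3.3.0 and hg19. Their settings, any Tn5 offset correction and the handling of duplicate reads are not given in the sources used here, and each could change which peaks pass. The deposited score, the fold enrichment (a ratio of summit pileup to local background) and the -log10 p and q values were used as the authors gave them. The lowest -log10 q was between 1.30 and 1.32 in the lists, which were therefore limited to q under 0.05.

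Groups and replicate numbers were taken from sample titles. The members and lists were chosen with earlier results of these data known. Gene spans were those given for the 4 genes, and starts are counted from 1. Full values were given for promoter regions (within 1 kb of the start), lost and gained regions and the top region of each window, and others in shorter form. The strand of FOSL1 is background knowledge. Reads at the summit (k) and local background (b) were solved from fold = (k + 1) / (b + 1) and a Poisson tail probability above k, and this succeeded in 100% of peaks (tolerance 0.001 on the -log10 scale). They were not scaled to the depth of each library. They can be set side by side between libraries only with that limit, and only if reads were extended alike. The library background is the most frequent b. Ratios of group means were tested by an exact permutation test over 6 assignments. Alternatives were other window sizes, a stricter q, lists of equal length, a larger overlap, other ranks, a replicate block and leaving out each library. Merging and recovery were tested on simulated data. Promoter sequences are from RefSeq (3 of 4 genes matched). Software was pandas 2.3.3, SciPy 1.17.1 and NumPy 2.4.6 under Python 3.11.15, with plots in matplotlib 3.10.9.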

Additional observations from a re-analysis of the deposited data

How the results depend on the processing

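Mean peak number and mean covered length in the 4 windows were lower in shCHD7-2 under each alternative run, and no p could fall below 0.333. With windows of 10, 50 and 250 kb the log2 ratio of peaks was -1, -2 and -1.49. It was -1.66 for peaks at -log10 q of 5 or more, and -1 with lists of equal length. Leaving out a library gave -2.06 to -1.06. A replicate block gave -1.55 (peaks) and -2.08 (covered length), each with an exact p of 0.5 by flipping signs over 2 pairs, the lowest possible, which changed no call. Same-numbered libraries did not deviate together in their calls (correlation of call differences 0.01 over 20450 regions, which are not independent replicates). Whether they share a culture or a batch is not given, and differences between listed and unlisted peaks cannot decide it.

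Counts of regions moved more, since they are small. Of the regions listed in both control libraries, 1 of 1 was lost with 10 kb windows and 5 of 14 with 250 kb windows. Lost regions numbered 4 to 8 when a library was left out. With a library left out fewer calls are required, so counts of lost, gained or shared regions can rise for that reason alone. The shares over all regions do not depend on the window size. Of those listed in both control libraries, 34.4% were lost and 39.7% were listed in all 4. For the other alternatives these shares are not given, so the counts cannot be set against the whole series. Regions listed in all 4 libraries numbered 0 with 10 kb windows, 0 with 50 kb windows, 0 for peaks at -log10 q of 5 or more, and 3 with 250 kb windows. Leaving out a library gave 1 to 4 regions listed in all that were left, with 2 without control replicate 1, 4 without shCHD7-2 replicate 1 and 2 without shCHD7-2 replicate 2. Gained regions numbered 1 with lists of equal length, the 3′ region of JUN, whose peak in control replicate 2 then dropped out. They numbered 0 to 1 when a library was left out, with 1 without control replicate 2 and 1 without shCHD7-2 replicate 1. Joining peaks that share 50% of the shorter one left these counts as they were. The percentile difference at the region in all 4 libraries kept its sign by fold enrichment, by place in the list and with each library left out. The other alternatives were not run for it, and at -log10 q of 5 or more no region was listed in all 4 libraries.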
